A study of Homo sapiens with 10 samples.

Results

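Messenger RNA was compared between 2 libraries labelled MYC knockdown and the 2 control libraries of the same experiment, experiment 2 of a study with 10 libraries in all. The 4 libraries were chosen by their titles and by the experiment number in them. All came from A375, an established line from a human melanoma whose BRAF kinase is switched on by mutation, and all cells were harvested 72 h after transfection. The tested libraries carry a label for small interfering RNA (siRNA) against cMyc. For the controls the sources differ, since the protocol describes a control siRNA and the sample labels say no treatment. The series title names the question, which was the part of PHF10, a subunit of the chromatin remodelling complex PBAF, in transcriptional activation by MYC. Nothing in the labels says that the 2 libraries of a group came from separate cultures, so p-values measure the spread between these libraries, which may be technical. Experiment 1, used here only where named or where all 10 libraries are fitted, held 4 libraries labelled PHF10 knockdown and 2 controls.

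MYC is a transcription factor that binds DNA as a dimer with MAX, best at the sequence CACGTG, called an E-box. MXD proteins and MXI1 compete with MYC for MAX and repress the same sites. In dividing cells MYC is known for raising genes of ribosome assembly, nucleotide synthesis and cell cycle entry, and in melanoma its level is kept up by signalling through BRAF and ERK.

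Reads assigned to genes numbered 38.37 M and 30.01 M under the MYC knockdown label and 36.56 M and 33.15 M in the controls. Levels are given in CPM, counts per 1000000 gene reads after scaling for library composition. Of 17481 genes that passed a filter on low counts, a gene was called when its adjusted p in edgeR's quasi-likelihood test (Benjamini-Hochberg) was under 0.05. Fold changes are libraries labelled MYC knockdown over controls, and a log2 value of 1 is a doubling. Log2 fold changes are given with their SE, as a value ± SE. The line's own identity markers were mixed, with 1 of the 6 called higher and 3 lower. SOX10, a neural crest factor that melanoma cells keep, had 909 and 919 CPM under the MYC knockdown label, against 797 and 795 CPM in control libraries (0.20 ± 0.04). MITF, the master factor of pigment cells, had 18.3 and 16.3 CPM in the 2 labelled knockdown libraries, against 20.5 and 21.6 CPM in the 2 controls (-0.28 ± 0.08). Leaving out control replicate 2 put MITF above the threshold, at an edgeR adjusted p of 0.0653. PMEL, a pigment granule protein (-1.06 ± 0.24), and S100B, a calcium-binding protein of neural crest cells (-0.70 ± 0.09), fell too. MLANA, a pigment cell antigen, had 0 reads in each library, and TYR, the key enzyme of pigment synthesis, had at most 2. Among markers of other cells, CD3E (T cells) had 0 reads and PTPRC (leukocytes) at most 1 read in each library. Marker sums are in CPM without composition scaling. The 5 epithelial markers summed to 12.1 and 14.03 CPM in the labelled knockdown libraries and 32.1 and 30.3 CPM in the control libraries, with EPCAM and GRHL2 at no more than 2 reads. The 4 endothelial markers summed to 29.8 and 31.1 CPM under the knockdown label and to 54.1 and 48.6 CPM in controls, nearly all from KDR. The 5 fibroblast markers summed to 13.1 and 15.3 CPM under the knockdown label and to 11.8 and 10.9 CPM in controls. The 5 immune markers summed to 0.938 and 0.733 CPM under the knockdown label and to 0.575 and 0.784 CPM in controls. The part of these markers in the results was not tested.

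The targeted gene did not separate the groups. MYC (ENSG00000136997, GRCh38 chromosome 8, 127735434 to 127741434) had 16.2 and 12.9 CPM in the labelled knockdown libraries and 14.4 and 25.5 CPM in the control libraries. Control replicate 2 stood apart as the highest library, and control replicate 1 lay between the libraries labelled MYC knockdown, so that the groups overlapped. MYC mRNA did not pass the test (log2 fold change -0.43, SE 0.42, adjusted p = 0.523, edgeR quasi-likelihood). Without control replicate 2 the log2 value was 0.024, and without control replicate 1 it was -0.80, with an adjusted p of 8.85e-13. MYC mRNA at 72 h thus did not bear out the label, and the libraries are called by that label throughout.

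The 2 controls differed more at MYC than at any other gene of at least 5 CPM. Over 11282 such genes the difference at MYC was 0.82 on the log2 scale, the next gene differed by 0.73, and the SD over these genes was 0.0956. The library kit is directional, and reads from MYC mRNA fall in the count column for the strand opposite to the read. Reads on the other strand of MYC numbered 90 and 71 under the MYC knockdown label and 83 and 401 in the controls. They made up 12.6% (95% Wilson interval 10.3% to 15.2%) and 15.5% (12.5% to 19.1%) of the stranded MYC reads under the knockdown label. The shares were 13.7% (11.2% to 16.6%) and 32.3% (29.8% to 34.99%) in the controls, where replicate 2 stood apart. These intervals cover counting error only. In the 6 libraries of experiment 1 the same column held 0 to 2 MYC reads each. Among 6675 genes with at least 50 such reads, MYC had the largest difference between the 2 controls there too, 2.27 on the log2 scale, and the next gene differed by 1.23.

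Taking the other-strand reads away from the MYC count brought the controls together. The difference was 13.9 and 10.5 CPM in the labelled knockdown libraries and 12.1 and 13.3 CPM in the control libraries, with a log2 fold change of -0.04 (SE 0.10, edgeR adjusted p = 0.768). This subtraction was chosen after seeing the data. CASC11, a noncoding gene that shares a stretch with MYC, was high in the same control library in the opposite-strand column. It had 16 and 19 reads there under the knockdown label and 17 and 89 reads in controls. Its other strand held more, 87 and 61 reads under the knockdown label and 83 and 137 in controls. Counted without regard to strand, CASC11 kept 2 and 0 reads under the label and 3 and 1 in controls. In each of these libraries MYC lost as many reads in that column as CASC11 did. Nearly all CASC11 reads were thus reads shared with MYC, and its high control library is not a second observation. PVT1, a noncoding neighbour of MYC, had no such library, with 355 and 285 reads under the knockdown label and 401 and 332 reads in controls. CASC11 and PVT1 were named after their values were seen, and the source of the other-strand reads was not tested. PHF10 had 120.4 and 116 CPM under the MYC knockdown label, against 119.6 and 120.1 CPM in control libraries (log2 fold change -0.02, SE 0.04, adjusted p = 0.723, edgeR), and MAX had 46.1 and 44.2 CPM in the 2 labelled knockdown libraries, against 48.8 and 49.3 CPM in the 2 controls (log2 fold change -0.12, SE 0.06, adjusted p = 0.0757, edgeR).

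**Figure D1:**
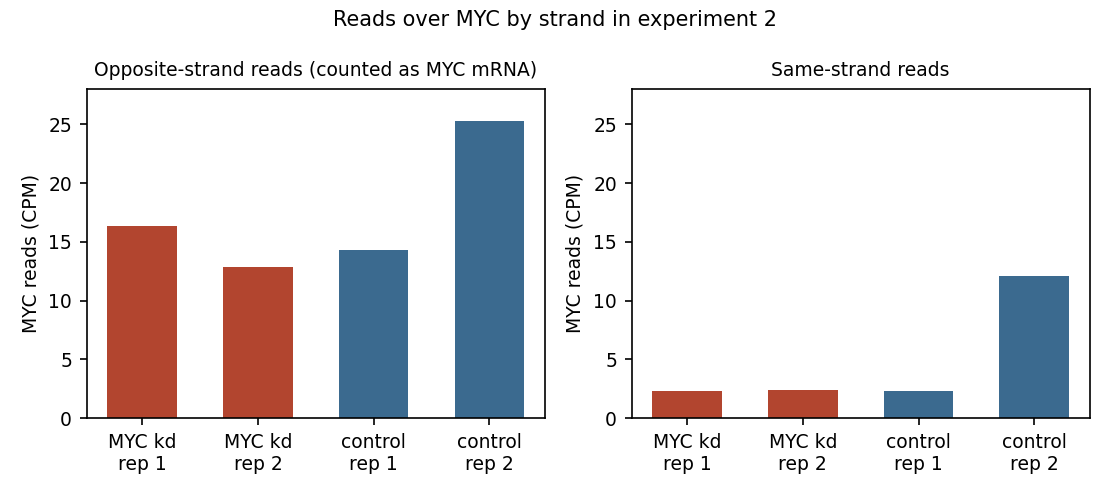
Reads over MYC in each library of experiment 2, in CPM over the gene reads of the library without composition scaling, on the strand counted as mRNA (left) and on the other strand (right). Bars are single libraries, those labelled MYC knockdown (kd) in red and controls in blue, and control replicate 2 is the highest in both panels.

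Many genes differed by a little between the 2 groups, and few by much. Of the 17481 genes, 44.5% were called, 3827 of them higher (21.9%) and 3954 lower (22.6%) in the libraries labelled MYC knockdown. The median size of a called change was 0.38 on the log2 scale (1.30-fold) among the higher genes and 0.33 (1.25-fold) among the lower genes, and 68.6% of the higher and 76.6% of the lower genes changed by less than 1.5-fold. At least a doubling was reached by 548 higher genes (3.13%) and 455 lower genes (2.6%). The median log2 fold change of all tested genes was 0.01. Without control replicate 2 the counts were 2890 higher and 2993 lower. Replicates lay close together, with a Pearson correlation of log2 CPM of 0.995 in each group. The same contrast was also fitted with the more variable libraries of experiment 1, which carry PHF10 knockdown and control labels. Then 52 genes were higher and 39 lower of 18450 tested (0.493%), and all 91 were among those called from the 4 libraries. In that fit 11 of the 44 gene lists described here had a called member, and 33 had 0, although 2435 genes had an unadjusted p under 0.05 (edgeR). The members of these lists were chosen with earlier results of these data known, so their shares are descriptions. Each list count is to be read beside the 21.9% higher and 22.6% lower of all tested genes. Bulk libraries cannot tell less RNA per cell apart from fewer cells of a kind.

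**Figure D2:**
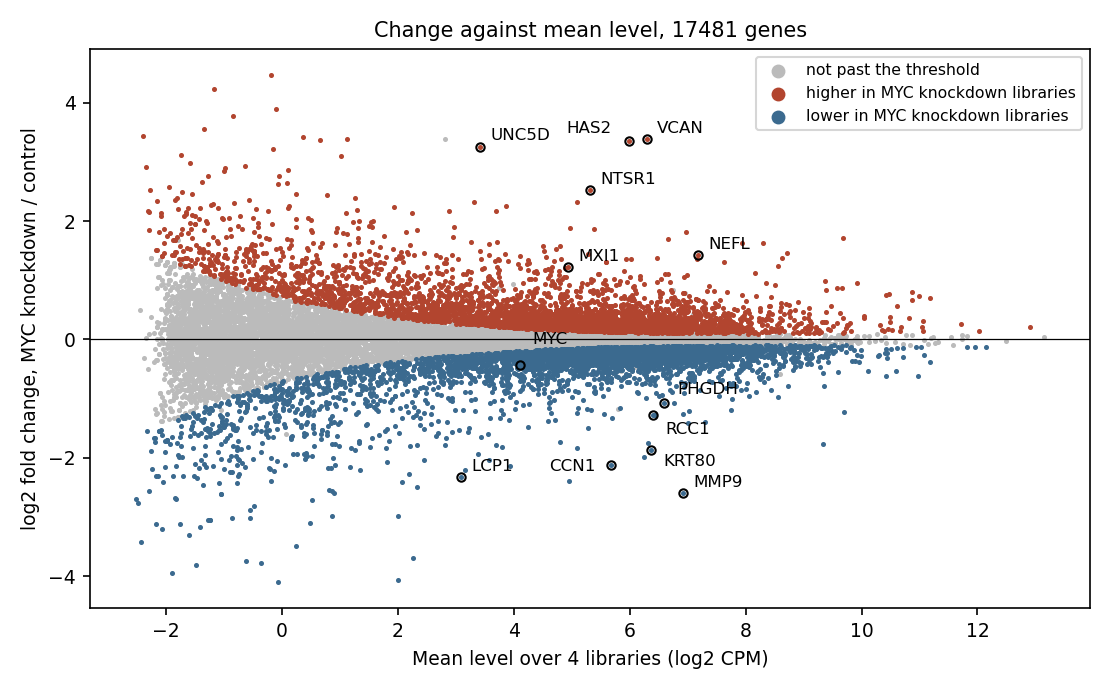
Log2 fold change (libraries labelled MYC knockdown over controls) against the mean level in log2 CPM, 1 point per tested gene. Genes past the threshold are red (higher) and blue (lower), grey genes are not, and ringed genes are named in the text, MYC among the grey ones at -0.43.

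Among called genes with a mean of at least 5 CPM, the 12 largest rises ranged from 1.86 to 3.38 on the log2 scale. VCAN, which encodes the matrix proteoglycan versican, had 124 and 162 CPM in the labelled knockdown libraries and 12.9 and 14.5 CPM in the control libraries. HAS2, which makes the hyaluronan that versican binds, had 98.2 and 133 CPM under the MYC knockdown label, against 11.3 and 11.3 CPM in control libraries. For each of these genes both libraries labelled MYC knockdown lay far above both controls, yet they also differed from each other, and the test gave VCAN a log2 fold change of 3.38 ± 0.23 (adjusted p = 0.00704, edgeR) and HAS2 of 3.35 ± 0.26 (adjusted p = 0.00973). HAS2 missed the threshold when either control was left out, with adjusted p of 0.115 without control replicate 1 and 0.114 without control replicate 2. UNC5D, a netrin receptor of growing axons, had 17.1 and 21.8 CPM in the 2 labelled knockdown libraries, against 2.39 and 1.61 CPM in the 2 controls (log2 fold change 3.26, SE 0.15, adjusted p = 8.21e-14, edgeR). NTSR1, the receptor for the peptide neurotensin, had 61.9 and 74.3 CPM in the labelled knockdown libraries and 12.5 and 11.1 CPM in the control libraries (log2 fold change 2.52, SE 0.09, adjusted p = 1.51e-13, edgeR). No overlap between the groups was a condition for picking these 4 genes, and it holds for 71.3% of all tested genes.

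PTPRZ1, a receptor phosphatase of glial cells, had 53.7 and 60.5 CPM under the MYC knockdown label, against 12.5 and 10.1 CPM in control libraries, and its log2 fold change was 2.33. GAP43, a protein of nerve growth cones, had 16.3 and 16.8 CPM in the 2 labelled knockdown libraries, against 3.24 and 3.34 CPM in the 2 controls, and its log2 fold change was 2.33. AREG, the EGF receptor ligand amphiregulin, had 19.3 and 28.8 CPM in the labelled knockdown libraries and 5.22 and 4.70 CPM in the control libraries, with the second library labelled MYC knockdown well above the first (log2 fold change 2.26, adjusted p = 0.0155, edgeR). EGR2, a zinc finger factor of Schwann cells and of the early response to growth signals, had 12.1 and 12.02 CPM under the MYC knockdown label, against 2.91 and 2.40 CPM in control libraries (log2 fold change 2.17, SE 0.13, adjusted p = 5.30e-20, edgeR). The other 4 of the 12 largest rises were LRFN5, a synaptic adhesion protein (2.18 ± 0.10), HCN2, a pacemaker ion channel (1.90 ± 0.13), PAPPA, a protease that cleaves IGF binding proteins (1.88 ± 0.10), and BMP6, a ligand of the BMP family (1.86 ± 0.06).

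The 12 largest falls, picked by the same rules with a minimum of 5 CPM, ranged from -2.60 to -1.86 on the log2 scale. MMP9, a secreted protease that degrades basement membrane collagen, had 36.7 and 31.7 CPM in the 2 labelled knockdown libraries, against 205 and 210.1 CPM in the 2 controls (log2 fold change -2.60, SE 0.05, adjusted p = 1.06e-34, edgeR). Both controls were high and close together, and the fall was 6.07-fold. CCN1, a matrix signalling protein and a common readout of YAP and TEAD activity, had 18.1 and 20.4 CPM in the labelled knockdown libraries and 85.4 and 81.3 CPM in the control libraries (log2 fold change -2.12, SE 0.06, adjusted p = 5.85e-33, edgeR). NGFR, the low-affinity nerve growth factor receptor and a marker of neural crest-like melanoma cells, had 27.5 and 34.4 CPM under the MYC knockdown label, against 119 and 125 CPM in control libraries (log2 fold change -1.99, SE 0.08, adjusted p = 1.28e-09, edgeR). LCP1, an actin-bundling protein best known from leukocytes, had 2.64 and 3.03 CPM in the 2 labelled knockdown libraries, against 14.6 and 13.7 CPM in the 2 controls (log2 fold change -2.33, SE 0.12, adjusted p = 4.87e-22, edgeR), beside at most 1 read of PTPRC in any library.

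FDCSP, a small secreted protein, had 10.4 and 9.46 CPM in the labelled knockdown libraries and 53.6 and 50.8 CPM in the control libraries. KRT80, an epithelial keratin, had 33.9 and 37.6 CPM under the MYC knockdown label, against 126 and 134 CPM in control libraries. Their log2 fold changes were -2.39 and -1.86. The other 6 of the 12 largest falls were ITGA10, a collagen-binding integrin subunit (-2.49 ± 0.16), DDAH1, which breaks down an inhibitor of nitric oxide synthesis (-2.20 ± 0.12), COL5A3, a chain of collagen V (-2.13 ± 0.10), XDH, the last enzyme of purine breakdown (-2.04 ± 0.15), MMP8, a collagenase of neutrophils (-2.03 ± 0.11), and TM4SF18, a membrane protein (-1.93 ± 0.11).

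**Figure D3:**
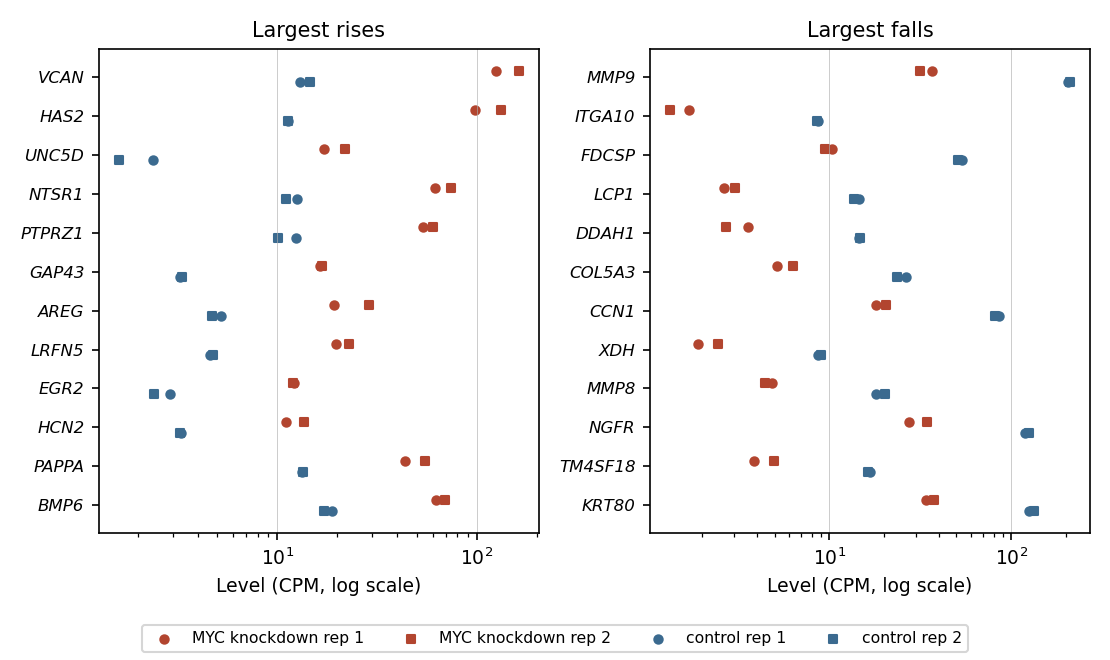
Levels in CPM on a log axis for the 12 largest rises (left) and the 12 largest falls (right) among called genes with a mean of at least 5 CPM. Red points are the libraries labelled MYC knockdown and blue points the controls. The 24 genes were picked only among those whose 2 groups do not overlap.

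Within the network of MYC, its partners and its competitors, the largest called change was in a competitor. MXI1, which pairs with MAX and opposes MYC, had 41.5 and 44.2 CPM in the 2 labelled knockdown libraries, against 19.1 and 17.5 CPM in the 2 controls (log2 fold change 1.22, SE 0.07, adjusted p = 2.30e-21, edgeR), and its change was also called with all 10 libraries in the fit. Of the 24 tested members 6 were higher and 7 lower (25% and 29.2%, near the 21.9% and 22.6% of all tested genes). MINK1, a kinase counted on this list although it is not a known partner or competitor of MYC, rose by 0.38 on the log2 scale. TRRAP, a scaffold through which MYC recruits histone acetyltransferases, rose by 0.21. AURKA, a mitotic kinase that protects MYC family proteins from breakdown, fell to 85.04 and 83.6 CPM under the knockdown label, against 111 and 115 CPM in the controls. WDR5, a chromatin protein that helps MYC bind, had a log2 fold change of -0.38 ± 0.05.

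Genes that MYC is known to activate were nearly all lower, by small amounts. Of 43 tested genes on a list of classical activated targets, 40 were lower (93%, against 22.6% of all tested genes) and 2 were higher, with a median log2 fold change of -0.31. RCC1, the exchange factor for the nuclear transport GTPase Ran, had 52.5 and 45.96 CPM in the labelled knockdown libraries and 121 and 120.1 CPM in the control libraries (log2 fold change -1.28, SE 0.05, adjusted p = 1.35e-24, edgeR). CCT5, a chaperonin subunit, had 425 and 403 CPM under the MYC knockdown label, against 552 and 574 CPM in control libraries. TFRC, the transferrin receptor, had 347 and 334 CPM in the 2 labelled knockdown libraries, against 454 and 462 CPM in the 2 controls. The controls of these genes were the higher group in both replicates. The 2 that went the other way were ODC1, the first enzyme of polyamine synthesis and a textbook MYC target, with 79.6 and 85.8 CPM in the labelled knockdown libraries and 50.2 and 53.6 CPM in the control libraries (log2 fold change 0.67, SE 0.05, adjusted p = 1.08e-15, edgeR), and ID2, an inhibitor of differentiation factors (0.89 ± 0.13), which was named after its value was seen. Without control replicate 2 the median of this list was -0.30. With all 10 libraries in the fit edgeR called 0 of 43, at a median of -0.33. At an unadjusted p under 0.05 in that fit, 8 members were lower and 1 higher. Among all 18450 genes tested there, 2435 passed that cut in either direction.

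Nucleolar and ribosome assembly factors, the best known group of MYC targets, were mostly lower. Of 60 tested members 48 were lower (80%) and the other 12 did not pass the test, with a median of -0.27. HEATR1, a factor of ribosomal RNA transcription and processing, had 263 and 238 CPM under the MYC knockdown label, against 351 and 360.4 CPM in control libraries. FBL, the methyltransferase fibrillarin, had 140.0 and 137 CPM in the 2 labelled knockdown libraries, against 193 and 196 CPM in the 2 controls (log2 fold change -0.49, SE 0.04, adjusted p = 4.89e-14, edgeR). LYAR, a nucleolar growth regulator, had the larger log2 fold change of -0.68 ± 0.05, GNL3 (nucleostemin) had -0.44 ± 0.05, and NPM1, an abundant nucleolar chaperone, fell by less, at -0.27 ± 0.04. The host genes of small nucleolar RNAs, which guide the modification of ribosomal RNA, were lower in 16 of 19 cases (median -0.22). Among them were SNHG3 (-0.71 ± 0.05), SNHG12 (-0.65 ± 0.07) and GAS5 (-0.43 ± 0.04). The annotated span of SNHG3 lies within that of RCC1, and whether their falls are separate observations was not tested.

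Genes of the translation machinery were also more often lower than higher. Cytosolic ribosomal protein genes were lower in 48 of 79 cases (60.8%) and higher in 3, with a median of only -0.11. RPS3 had 1544 and 1461 CPM in the labelled knockdown libraries and 1868 and 1834 CPM in the control libraries. RPSA, RPS2 and RPL12 had log2 fold changes of -0.36, -0.31 and -0.28. Ribosomal protein genes have many processed pseudogenes, so their counts depend on how shared reads were assigned. Without control replicate 1, 31 were lower, and without control replicate 2, 27, while the median of the second was again -0.11.

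Among 74 mitochondrial ribosomal protein genes 43 were lower and 3 higher (1 without control replicate 2), with a median of -0.17. MRPS6 was the odd member, with 81.9 and 83.3 CPM under the MYC knockdown label, against 40.99 and 42.9 CPM in control libraries (log2 fold change 0.98, SE 0.05, adjusted p = 4.84e-22, edgeR), while MRPS9 (-0.85 ± 0.09) and MRPL3 (-0.37 ± 0.05) fell. Translation factors were lower in 25 of 42 cases and higher in 4 (1 without control replicate 1), with a median of -0.17. EIF4EBP2, which restrains cap-dependent translation, had 96.3 and 90.6 CPM in the 2 labelled knockdown libraries, against 157 and 155 CPM in the 2 controls. EIF1AX, a start site scanning factor, had a log2 fold change of -0.37 ± 0.05. Of 19 cytosolic aminoacyl-tRNA synthetases, which charge transfer RNAs, 17 were lower, with a median of -0.25, and 1 was higher with all 4 libraries, a count that was 0 without labelled knockdown replicate 2 or either control. Among the lower ones were YARS1 (-0.54 ± 0.04) and GARS1 (-0.43 ± 0.04). Of 77 nuclear-encoded respiratory chain genes 18 were lower (23.4%, near the 22.6% of all tested genes) and 5 higher (6.49%, below the 21.9% of all tested genes). Without control replicate 1 the higher genes numbered 3 and without control replicate 2 they numbered 2. ATP5MC1, a subunit of the ATP synthase ring, fell (-0.67 ± 0.06). Of 13 mRNAs from mitochondrial DNA 2 were higher and 2 lower, among them MT-ND4 (0.21 ± 0.04), but leaving out labelled knockdown replicate 1 gave 3 higher and 4 lower, replicate 2 gave 4 and 1, and control replicate 1 gave 2 and 1.

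Genes that supply nucleotides and amino acids were more often lower than higher. Of 30 nucleotide synthesis genes 23 were lower (76.7%) and 3 higher, with a median of -0.38. PAICS, an enzyme of purine assembly, had 244 and 227 CPM in the labelled knockdown libraries and 359 and 369 CPM in the control libraries (log2 fold change -0.63, SE 0.04, adjusted p = 5.51e-18, edgeR). Both controls lay above both labelled knockdown libraries. MTHFD2, of mitochondrial folate metabolism, fell as well (-0.66 ± 0.05), and so did PRPS2, which makes the ribose donor (-0.58 ± 0.05).

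The list of serine and amino acid genes under ATF4 was lower in 17 of 30 cases and higher in 4, with a median of -0.20 (-0.31 without labelled knockdown replicate 1). PHGDH, the first enzyme of serine synthesis, had 66.8 and 58.1 CPM under the MYC knockdown label, against 128 and 135 CPM in control libraries (log2 fold change -1.07, SE 0.05, adjusted p = 2.38e-17, edgeR), and PSAT1, the next enzyme, had 78.9 and 69.2 CPM in the 2 labelled knockdown libraries, against 130.2 and 137 CPM in the 2 controls. The amino acid carriers SLC1A5 (-0.74 ± 0.04), SLC7A1 (-0.71 ± 0.05) and SLC7A5 also fell, SLC7A5 with replicates further apart (log2 fold change -0.79, SE 0.11, adjusted p = 0.00916, edgeR).

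E-boxes were looked for in the 250 bases before each listed transcription start, taken from RefSeq (GRCh38.p14), for 11049 of the 13649 tested protein-coding genes. A gene was counted once, as having the box if any of its starts did, so genes with more starts had more chances. The letters CACGTG, which read the same on both strands, were found for 7.73% of all 27305 genes with a promoter sequence and for 11.2% of the tested genes. They were in 11.8% of the promoters of lower genes, 10.4% of those of higher genes and 11.2% of those of genes not called. Among genes lower by at least 1 on the log2 scale 18 of 228 had them (7.89%). Among genes higher by as much, 33 of 295 did (11.2%). The list of classical activated targets held them in 16 of 38 genes (42.1%), nucleolar factors in 10 of 53 (18.9%) and nucleotide synthesis in 5 of 26 (19.2%). The shares were 7 of 52 (13.5%) for G1/S genes and 1 of 18 (5.56%) for neural genes. G2/M genes held them in 7 of 67 (10.4%) and TGF-beta and SMAD targets in 4 of 19 (21.1%). These shares are descriptions, and a match is not a binding site. For 4 named genes a window that overlaps no annotated exon is printed, the one with the most boxes where a gene had several. These genes, picked after their values were seen, set 2 falling genes and a rising gene with the box beside a rising gene without it. The box is in capitals and the last base is next to the start. SLC7A5 (chr16:87869508-87869757, minus strand) has it 130 bases before the start, HNRNPD, a splicing and RNA decay factor (chr4:82373992-82374241, minus strand), 27 bases before, and EGR2 (chr10:62818776-62819025, minus strand) 30 bases before, while NTSR1 (chr20:62708586-62708835, plus strand) has none in this window.
SLC7A5: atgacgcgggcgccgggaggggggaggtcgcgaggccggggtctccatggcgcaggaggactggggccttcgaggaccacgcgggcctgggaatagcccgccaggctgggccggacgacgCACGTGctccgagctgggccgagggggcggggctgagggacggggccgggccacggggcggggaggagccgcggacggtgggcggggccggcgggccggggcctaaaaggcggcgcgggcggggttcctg
HNRNPD: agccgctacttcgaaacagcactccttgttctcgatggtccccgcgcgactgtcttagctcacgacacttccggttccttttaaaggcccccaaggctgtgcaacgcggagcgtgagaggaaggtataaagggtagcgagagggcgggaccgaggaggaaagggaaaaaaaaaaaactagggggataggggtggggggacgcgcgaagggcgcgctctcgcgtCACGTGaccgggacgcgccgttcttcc
EGR2: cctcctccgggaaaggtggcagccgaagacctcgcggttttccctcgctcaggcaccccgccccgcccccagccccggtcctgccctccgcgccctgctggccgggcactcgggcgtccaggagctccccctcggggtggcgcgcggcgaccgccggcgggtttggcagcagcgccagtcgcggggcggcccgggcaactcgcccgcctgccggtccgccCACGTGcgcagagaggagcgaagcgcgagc
NTSR1: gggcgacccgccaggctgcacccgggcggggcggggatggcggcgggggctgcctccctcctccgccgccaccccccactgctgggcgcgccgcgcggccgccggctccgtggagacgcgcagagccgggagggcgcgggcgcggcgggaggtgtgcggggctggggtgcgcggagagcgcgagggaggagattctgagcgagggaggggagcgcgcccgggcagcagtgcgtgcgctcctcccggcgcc

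Cell cycle genes were lower almost throughout. Of 66 tested genes of the G1/S step and DNA replication, 62 were lower (93.9%) and 1 higher, with a median of -0.34. FEN1, the flap nuclease of lagging strand synthesis, had 112 and 99.2 CPM in the labelled knockdown libraries and 195 and 187 CPM in the control libraries (log2 fold change -0.85, SE 0.05, adjusted p = 3.03e-18, edgeR). CDC6, which loads the replicative helicase, had 64.2 and 57.7 CPM under the MYC knockdown label, against 88.9 and 94.9 CPM in control libraries. MCM2, a subunit of that helicase, had 177 and 168 CPM in the 2 labelled knockdown libraries, against 233 and 240.1 CPM in the 2 controls. The controls were higher in both replicates of each. UHRF1, which carries DNA methylation through replication, had a log2 fold change of -0.51 ± 0.05. The member that rose, named after its value was seen, was CCNE1, the cyclin that drives entry into S phase, with 31.7 and 32.1 CPM in the labelled knockdown libraries and 22.3 and 23.1 CPM in the control libraries (log2 fold change 0.49, SE 0.07, adjusted p = 2.16e-08, edgeR).

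Of 79 genes of G2 and mitosis, 71 were lower (89.9%) and the other 8 did not pass the test, with a median of -0.30. MYBL2, a factor that activates mitotic genes, had 107 and 102 CPM under the MYC knockdown label, against 171 and 171 CPM in control libraries (log2 fold change -0.70, SE 0.04, adjusted p = 3.80e-19, edgeR). CDC20, the activator of the anaphase-promoting complex, had 120.0 and 115 CPM in the 2 labelled knockdown libraries, against 169 and 167 CPM in the 2 controls, and the kinesins KIF20A and KIF18B had log2 fold changes of -0.60 ± 0.05 and -0.58 ± 0.05. Leaving out control replicate 2 gave counts of 53 lower of the G1/S list and 57 lower of the mitotic list. With all 10 libraries in the fit edgeR called 0 members of either list, with medians of -0.35 and -0.31. At an unadjusted p under 0.05 in that fit, 18 of 66 G1/S and 4 of 79 mitotic genes were lower. Among all 18450 genes tested there, 2435 passed that cut in either direction, so these counts are descriptions.

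Replication-dependent histone genes ran against the other S phase genes. Of 15 tested, 9 were higher (60%, against 21.9% of all tested genes) and the other 6 did not pass the test, with a median of 0.86. H2BC21 had 23.4 and 24.3 CPM in the labelled knockdown libraries and 9.97 and 9.71 CPM in the control libraries (log2 fold change 1.28, SE 0.08, adjusted p = 2.37e-18, edgeR). H2AC6 had 10.3 and 12.02 CPM under the MYC knockdown label, against 4.48 and 3.70 CPM in control libraries. H2AC11 had 3.81 and 3.73 CPM in the 2 labelled knockdown libraries, against 1.15 and 0.728 CPM in the 2 controls. Most histone mRNAs of this kind lack a poly(A) tail, these libraries were made from poly(A)-selected RNA, and near-identical copies can share reads, so single histone values are uncertain.

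**Figure D4:**
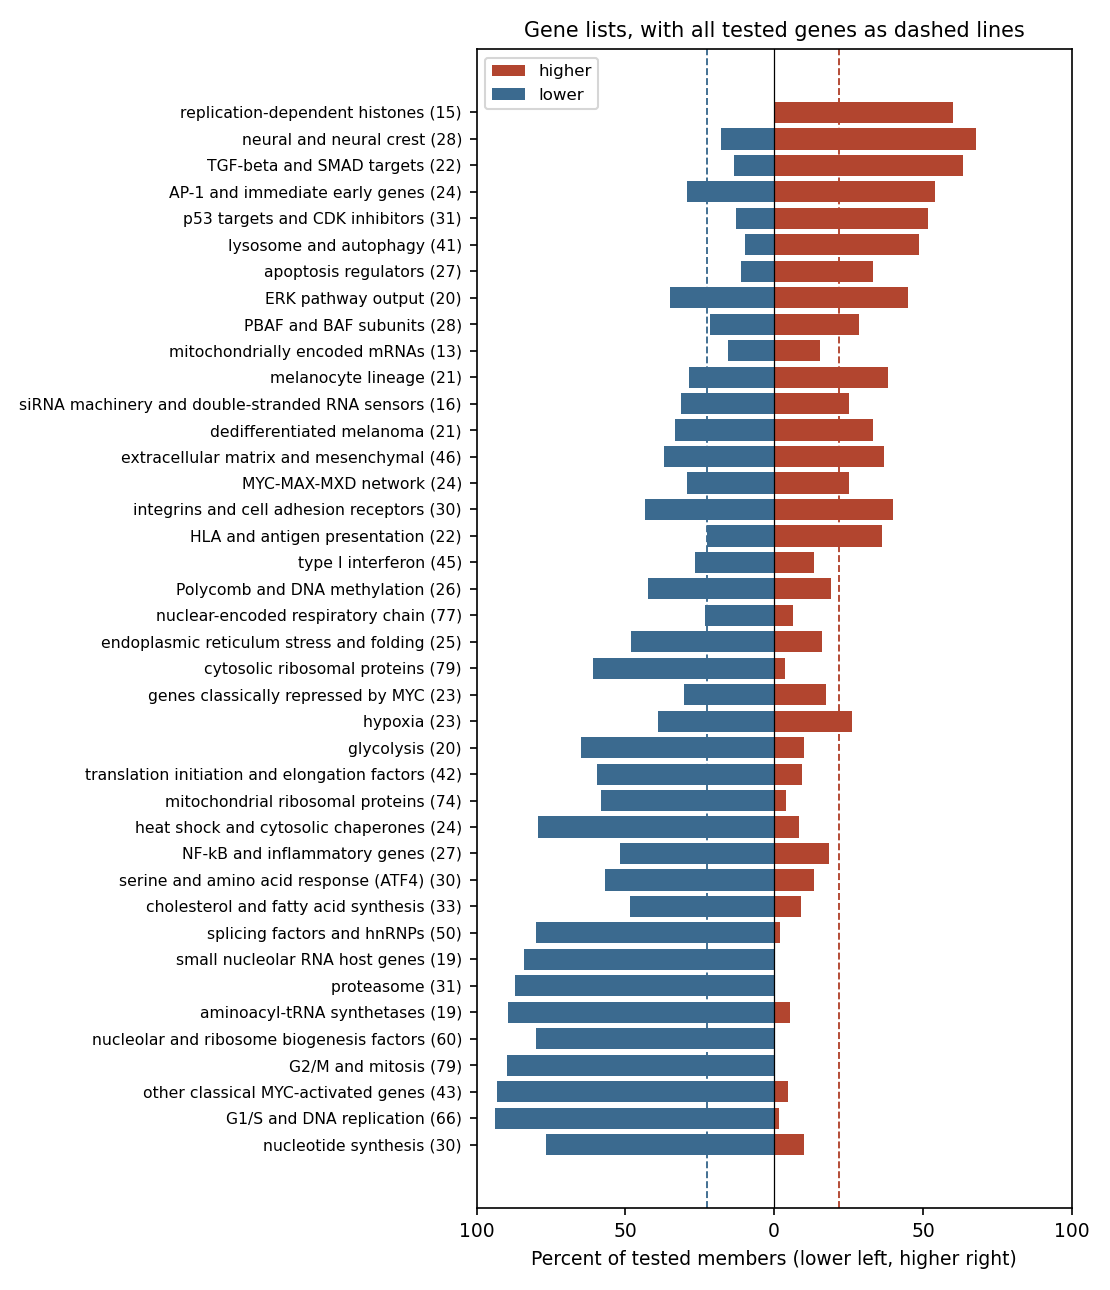
For each gene list with at least 10 tested members (number in brackets), the percent of members called lower (blue, to the left) and higher (red, to the right) in the libraries labelled MYC knockdown, ordered by median log2 fold change. Dashed lines mark all tested genes, 22.6% lower and 21.9% higher, and G1/S genes reach 93.9% lower.

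Targets of p53 and inhibitors of cyclin-dependent kinases leaned higher. Of 31 tested, 16 were higher (51.6%, against 21.9% of all tested genes) and 4 lower (2 without control replicate 1), with a median of 0.17. CDKN1B, the cell cycle inhibitor p27, had 102 and 108 CPM in the labelled knockdown libraries and 74.1 and 65.7 CPM in the control libraries (log2 fold change 0.59, SE 0.05, adjusted p = 6.15e-13, edgeR). PLK2, a stress-induced kinase (0.65 ± 0.05), FAS, a death receptor (0.62 ± 0.06), and MDM2, the ubiquitin ligase of p53 (0.40 ± 0.04), rose as well. Of 27 apoptosis regulators 9 were higher and 3 lower (5 lower without labelled knockdown replicate 2). With every library in the fit 33.3% of them were higher and 11.1% lower, against 21.9% and 22.6% of all tested genes. The median of the apoptosis list was 0.09, but 0.02 without labelled knockdown replicate 2 and -0.02 without control replicate 2. APAF1, the core of the apoptosome, rose (0.75 ± 0.05), as did MCL1, which blocks apoptosis (0.40 ± 0.04).

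The list of genes that MYC is known to repress did not rise as a group. Of 23 tested, 4 were higher and 7 lower (17.4% and 30.4%, against 21.9% and 22.6% of all tested genes). Without labelled knockdown replicate 1, 7 were higher and 6 lower, and the median of -0.13 became -0.0084. NDRG1, a stress and differentiation gene, had 292 and 324 CPM under the MYC knockdown label, against 182 and 185 CPM in control libraries. THBS1, the secreted angiogenesis inhibitor thrombospondin, had 479 and 522 CPM in the 2 labelled knockdown libraries, against 1169 and 1164 CPM in the 2 controls (log2 fold change -1.22, SE 0.04, adjusted p = 5.35e-29, edgeR). CAV1, the coat protein of caveolae, had 19.97 and 20.8 CPM in the labelled knockdown libraries and 56.6 and 57.8 CPM in the control libraries. FTH1, the ferritin heavy chain, had 1567 and 1617 CPM under the MYC knockdown label, against 2459 and 2443 CPM in control libraries. These 3 textbook repressed genes were all lower where MYC was labelled as knocked down.

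Genes downstream of ERK, the kinase that BRAF switches on, were split. Of 20 tested, 9 were higher (45%, against 21.9% of all tested genes) and 7 lower (35%, against 22.6%). Their median of 0.07 was 0.15 without labelled knockdown replicate 1, and 0.11 and 0.04 when control replicate 1 and control replicate 2 were left out in turn. DUSP6, a phosphatase that feeds back on ERK, had 457 and 492 CPM in the 2 labelled knockdown libraries, against 255 and 245 CPM in the 2 controls (log2 fold change 0.93, SE 0.04, adjusted p = 7.03e-24, edgeR), and the feedback inhibitor SPRY4 (0.65 ± 0.04) and PHLDA1 (0.67 ± 0.04) rose too. EPHA2, an ephrin receptor, had 176 and 189.6 CPM in the labelled knockdown libraries and 354 and 352 CPM in the control libraries (log2 fold change -0.95, SE 0.04, adjusted p = 9.11e-25, edgeR). Among AP-1 and immediate early genes 13 of 24 were higher (54.2%) and 7 lower (29.2%), with a median of 0.26 (0.16 without labelled knockdown replicate 2). Beside EGR2, the nuclear receptors NR4A3 (1.12 ± 0.09) and NR4A2 (0.82 ± 0.06) rose, and FOSL2, an AP-1 subunit, fell (-0.91 ± 0.05).

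Neural genes and genes of TGF-beta signalling were most often higher among the lists with at least 10 tested members. The lists were chosen with earlier results of these data known, so this ranking is a description only. Of 28 tested neural and neural crest genes 19 were higher (67.9%) and 5 lower, with a median of 0.60. NEFL, the light neurofilament chain, had 206 and 215 CPM under the MYC knockdown label, against 77.6 and 78.6 CPM in control libraries (log2 fold change 1.43, SE 0.04, adjusted p = 1.44e-31, edgeR). CHRM3, a muscarinic acetylcholine receptor, had 40.6 and 38.7 CPM in the 2 labelled knockdown libraries, against 14.1 and 13.3 CPM in the 2 controls. SEMA3A, an axon guidance ligand, had 98.7 and 102 CPM in the labelled knockdown libraries and 51.6 and 53.3 CPM in the control libraries. NRP2, a receptor for such ligands, had 442 and 459.9 CPM under the MYC knockdown label, against 316 and 331 CPM in control libraries. Each of these rose with both libraries above both controls, as did GAP43, but members ranged down to -1.61. By at least 1 on the log2 scale, 11 members were higher and 2 lower. NGFR, a neural crest marker that fell (-1.99 ± 0.08), is not on this list. With control replicate 2 left out, 17 members were higher and 3 lower.

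Of 22 tested TGF-beta and SMAD targets 14 were higher (63.6%) and 3 lower, with a median of 0.37. PMEPA1, a feedback inhibitor of this pathway, had 1235 and 1336 CPM in the 2 labelled knockdown libraries, against 668 and 659.8 CPM in the 2 controls (log2 fold change 0.95, SE 0.04, adjusted p = 4.11e-25, edgeR). BAMBI, a decoy receptor, had 157 and 173 CPM in the labelled knockdown libraries and 79.8 and 79.5 CPM in the control libraries. ID1, a target of BMP signalling, had 199 and 209.9 CPM under the MYC knockdown label, against 147 and 135 CPM in control libraries. SMAD3, which carries the signal to the nucleus, was lower, with 121 and 121 CPM in the 2 labelled knockdown libraries, against 171 and 173 CPM in the 2 controls.

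Melanoma state genes gave no common direction. Of 21 tested melanocyte lineage genes 8 were higher (38.1%, against 21.9% of all tested genes) and 6 lower (28.6%, against 22.6%). The other 9 of the list's 30 did not pass the filter. MCAM, an adhesion protein of melanoma cells, had 234 and 250.3 CPM in the labelled knockdown libraries and 368 and 386 CPM in the control libraries. ERBB3, a neuregulin receptor (-0.44 ± 0.04), and S100B fell with it. EDNRB, the endothelin receptor of melanoblasts, had 68.8 and 66.1 CPM under the MYC knockdown label, against 50.9 and 48.8 CPM in control libraries. Of 21 genes of dedifferentiated melanoma 7 were higher and 7 lower, and 4 were higher without control replicate 1 or without the second library labelled MYC knockdown. With every library in the fit the shares of this list were 33.3% higher and 33.3% lower. NT5E, the surface enzyme CD73, rose (0.82 ± 0.05). CCN2 (-1.38 ± 0.07) and TEAD4 (-0.87 ± 0.07), of the same YAP and TEAD pathway as CCN1, fell.

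Matrix genes moved strongly in both directions. Of 46 tested 17 were higher and 17 lower (37% each). Of 30 integrins and adhesion receptors 12 were higher (40%) and 13 lower (43.3%). Among all tested genes 21.9% were higher and 22.6% lower. COL9A3, a chain of collagen IX, had 938 and 1025 CPM in the 2 labelled knockdown libraries, against 545 and 530.3 CPM in the 2 controls. FBN1, the microfibril protein fibrillin, had 134 and 139.8 CPM in the labelled knockdown libraries and 66.7 and 73.6 CPM in the control libraries. Both rose. LOXL4, which crosslinks collagen, had 129 and 132 CPM under the MYC knockdown label, against 302 and 297 CPM in control libraries (log2 fold change -1.20, SE 0.04, adjusted p = 2.67e-29, edgeR). ITGB8, an integrin subunit that activates latent TGF-beta, had 854 and 869.9 CPM in the 2 labelled knockdown libraries, against 502 and 468 CPM in the 2 controls. PCDH9, a protocadherin, had 40.3 and 38.4 CPM in the labelled knockdown libraries and 19.3 and 18.7 CPM in the control libraries. These 2 receptors rose, while TNS3, which links integrins to actin, fell (-0.80 ± 0.04).

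**Figure D5:**
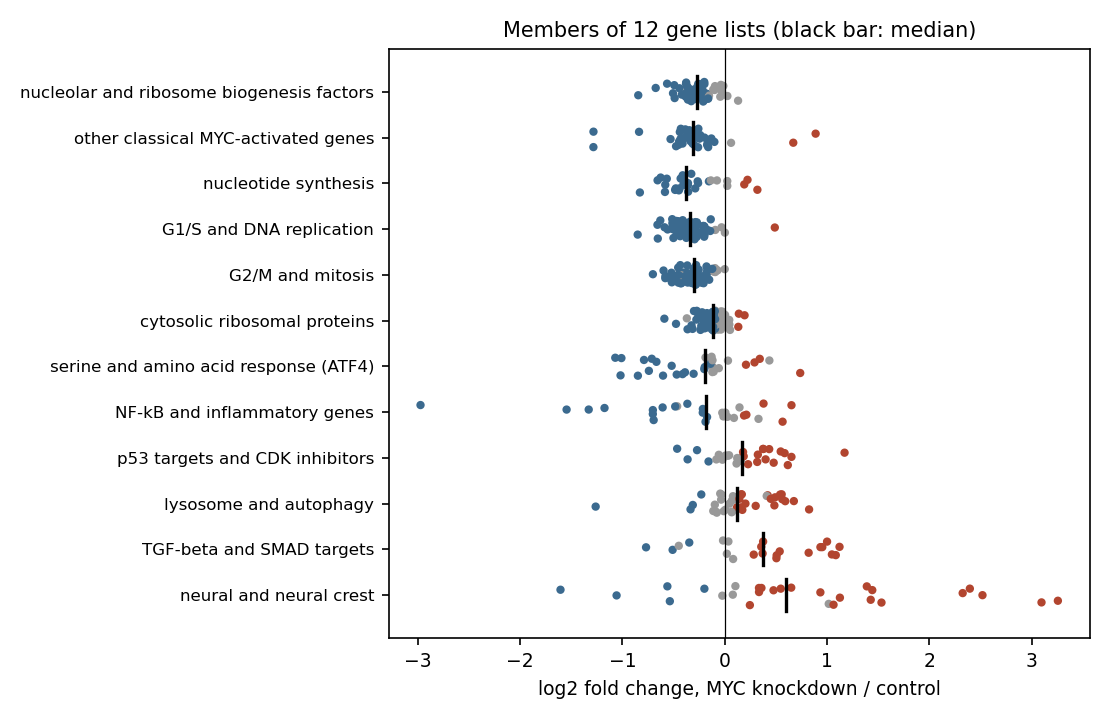
Log2 fold change (libraries labelled MYC knockdown over controls) of each tested member of 12 gene lists, 1 point per gene, red for called higher, blue for called lower and grey for not called, with the median as a black bar. The cell cycle and nucleotide synthesis lists sit together left of 0, with medians of -0.30 to -0.38, while the neural list reaches from -1.61 to 3.26.

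Inflammatory genes were lower more often than higher. Of 27 tested NF-kB and inflammatory genes 14 were lower (51.9%) and 5 higher, with a median of -0.19. CXCL1, a neutrophil chemokine, had 186 and 173 CPM under the MYC knockdown label, against 296 and 289 CPM in control libraries. CCL2, a monocyte chemokine, had 7.79 and 7.69 CPM in the 2 labelled knockdown libraries, against 19.6 and 19.4 CPM in the 2 controls. IL6, an inflammatory cytokine, had 0.880 and 0.933 CPM in the labelled knockdown libraries and 7.42 and 6.83 CPM in the control libraries (log2 fold change -2.98, SE 0.18, adjusted p = 2.17e-19, edgeR). All fell, with the 2 controls of each close together, and SOD2, the mitochondrial superoxide dismutase, fell as well (-0.70 ± 0.05).

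Interferon genes, which transfected RNA can switch on, were not more often higher than all tested genes, with 6 of 45 higher (13.3%, against 21.9%) and 12 lower (26.7%, against 22.6%). Without control replicate 2 these counts were 2 and 7, and without the first library labelled MYC knockdown 12 were higher. STAT2, a factor of the interferon response, rose (0.42 ± 0.05) and OAS3, a sensor enzyme for double-stranded RNA, fell (-0.40 ± 0.04). Of 16 genes for the siRNA machinery and sensors of double-stranded RNA 4 were higher (2 without control replicate 2) and 5 lower (3 without labelled knockdown replicate 2), 25% and 31.2% against 21.9% and 22.6% of all tested genes. Among those called were TNRC6B, a silencing scaffold (0.61 ± 0.05), and the receptor TLR3 (-0.75 ± 0.11). HLA and antigen presentation genes had 8 of 22 higher and 5 lower, and 5 higher and 3 lower without control replicate 2. Leaving out the second library labelled MYC knockdown also left 5 higher, and leaving out control replicate 1 left 3 lower. HLA-C rose (0.39 ± 0.05), while CIITA, the master activator of class II genes (-0.46 ± 0.04), and the peptide transporter subunit TAP2 (-0.59 ± 0.07) fell. With every library in the fit the HLA list was 36.4% higher and 22.7% lower, against 21.9% and 22.6% of all tested genes. Reads of HLA genes depend on how alleles match the reference.

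Protein quality control and RNA splicing leaned lower. The proteasome list was lower in 27 of 31 cases (87.1%), with the other 4 not called and a median of -0.22, and PSMB4 (-0.40 ± 0.04) and PSMD11 (-0.43 ± 0.04) were among those that fell. Chaperones were lower in 19 of 24 cases and higher in 2 (0 without control replicate 1 and 1 without control replicate 2), with a median of -0.19 and with HSP90AA1, the stress-inducible HSP90, at -0.54 ± 0.04 and its cofactor AHSA1 at -0.41 ± 0.04. Splicing factors were lower in 40 of 50 cases and higher in 1 (0 without either control), with a median of -0.21 and with PRPF19 at -0.46 ± 0.04, SNRPA at -0.43 ± 0.05 and HNRNPD at -0.37 ± 0.04. Genes of the endoplasmic reticulum were lower in 12 of 25 cases (48%) and higher in 4 (16%). Among all tested genes 22.6% were lower and 21.9% higher. XBP1, the factor of the unfolded protein response, was at -0.56 ± 0.05 and HERPUD1 at -0.47 ± 0.06. EDEM1, which sorts misfolded proteins for breakdown, was at 0.54 ± 0.04.

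Lysosome and autophagy genes went the other way, with 20 of 41 higher (48.8%) and 4 lower (median 0.12). CTSL, a lysosomal protease, had 167 and 182 CPM under the MYC knockdown label, against 107 and 112 CPM in control libraries. ULK1, the kinase that starts autophagy, had 91.9 and 96.8 CPM in the 2 labelled knockdown libraries, against 66.5 and 61.6 CPM in the 2 controls. TPP1, a lysosomal peptidase, had 123 and 134 CPM in the labelled knockdown libraries and 90.5 and 83.2 CPM in the control libraries. After leaving out control replicate 2, 12 were higher.

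Metabolic lists leaned lower as well. Glycolysis genes were lower in 13 of 20 cases (65%, against 22.6% of all tested genes) and higher in 2 (10%, against 21.9%). Their median was -0.16. The glucose carrier SLC2A1 (-0.70 ± 0.04) and the enolase ENO1 (-0.38 ± 0.04) fell, and the neuronal enolase ENO2 rose (0.46 ± 0.05). Cholesterol and fatty acid genes were lower in 16 of 33 cases and higher in 3, with a median of -0.20. The median was -0.33 without labelled knockdown replicate 1 and -0.12 without replicate 2, where 5 were higher. LSS, which closes the sterol rings, was at -0.41 ± 0.05. Hypoxia genes were split, with 6 of 23 higher (26.1%, against 21.9% of all tested genes) and 9 lower (39.1%, against 22.6%). STC1, a secreted glycoprotein, had 191 and 199.8 CPM under the MYC knockdown label, against 57.6 and 53.6 CPM in control libraries (log2 fold change 1.81, SE 0.05, adjusted p = 9.40e-35, edgeR), and VEGFA, the endothelial growth factor, had 44.2 and 42.8 CPM in the 2 labelled knockdown libraries, against 66.2 and 68.7 CPM in the 2 controls.

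Chromatin regulators moved in both directions. Of 28 PBAF and BAF subunits 8 were higher and 6 lower (28.6% and 21.4%, against 21.9% and 22.6% of all tested genes), among them SMARCD3 (0.71 ± 0.09) and BCL7B (-0.41 ± 0.05). Without control replicate 1, 4 were higher, and without control replicate 2, 3 were lower. Of 26 Polycomb and DNA methylation genes 5 were higher and 11 lower, with 7 lower when control replicate 2 was left out. With all 4 libraries the shares of this list were 19.2% higher and 42.3% lower, so it leaned lower against all tested genes. Among its higher members were JARID2, a Polycomb cofactor (0.55 ± 0.05), and the DNA methyltransferase DNMT3A (0.61 ± 0.06).

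Several genes used as markers of other cell types fell. Of 14 epithelial genes 7 passed the filter and these 7 were lower, among them KRT7 and KRT14. KRT18 had 151 and 153 CPM in the labelled knockdown libraries and 226 and 232 CPM in the control libraries. KRT7 had 3.73 and 3.06 CPM under the MYC knockdown label, against 10.1 and 11.5 CPM in control libraries, and the fall of KRT14 was -1.78 ± 0.13. Of 9 endothelial genes 6 passed the filter and 4 were lower, among them TIE1, an endothelial receptor kinase, and KDR, the VEGF receptor. TIE1 had 0.492 and 0.933 CPM in the 2 labelled knockdown libraries, against 8.63 and 9.25 CPM in the 2 controls (log2 fold change -3.69, SE 0.19, adjusted p = 7.88e-22, edgeR). KDR had 28.2 and 29.6 CPM in the labelled knockdown libraries and 51.4 and 45.3 CPM in the control libraries. Of 13 immune genes 5 passed and 3 were lower, LCP1 first, and 1 was higher (0 without control replicate 1 or either labelled knockdown library). Of 10 fibroblast genes 7 passed, with 2 higher and 2 lower, among them PDGFRA (0.88 ± 0.13) and LUM (-1.13 ± 0.22). Of tested members 100% were lower on the epithelial, 66.7% on the endothelial, 60% on the immune and 28.6% on the fibroblast list. Higher were 20% of the immune and 28.6% of the fibroblast list. Among all tested genes 22.6% were lower and 21.9% higher, near the fibroblast shares. Members of these lists that passed the filter in only the group where they are high had to differ, so their counts are given as a description.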

How the data were processed

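Per the labels' protocols, poly(A) RNA was selected, converted with a directional kit and read from 1 end for 100 nt. The submitters' processing notes name cutadapt, STAR and the genome build GRCh38.p13. Which versions and which annotation they used is not given here. Each deposited file holds whole, unscaled read counts for 60623 gene IDs, counted without regard to strand and for each strand. The opposite-strand column was used, since it held all but 5.39% to 5.50% of the stranded reads. Summary lines for unassigned reads, 19.1% to 19.6% of total reads in these libraries, were left out. A name table covered 60295 of the IDs and GENCODE release 29 covered 58516, and 1438 of 1441 list symbols matched.

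The 4 libraries alone entered edgeR 4.0.16 (in R 4.3.3), with TMM factors, filterByExpr, robust quasi-likelihood fits and 2 residual degrees of freedom, with an adjusted p threshold of 0.05 (Benjamini-Hochberg). SE is the size of the log2 fold change over the square root of F. With 2 libraries a group, most of the spread estimate is shared across genes (median prior of 48.0 degrees of freedom). Replicates differed by more than counting noise, with a chi-square per degree of freedom of 4.58 in the labelled knockdown pair and 2.45 in the control pair.

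The members and the 44 gene lists were chosen with earlier results of these data known. Named genes were MYC, MAX and PHF10, the 12 largest called rises and falls with 5 CPM or more on average, no overlap and a gene symbol, and from each list up to 4 called members with the smallest unadjusted p and the one with the largest mean CPM, with some left out for length or not reported here; marker genes and genes said to be named after their values were seen lie outside this rule. Alternatives were DESeq2 1.42.0, limma-voom (limma 3.58.1), other scaling factors, other filters, the unstranded column, the replicate number as a block, all 10 libraries in 1 fit, and each library left out.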

Additional observations from a re-analysis of the deposited data

How the results depend on the processing

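With 2 libraries a group, calls rest on a spread shared across genes. With all 10 libraries in 1 fit, 52 genes were higher and 39 lower, of which 38 and 31 by at least a doubling, and 15 of 157 named genes past the threshold were still called. The biological coefficient of variation was 3.39% in experiment 2 alone and 21.4% over all 10 libraries. A minimum of 1 CPM in 2 libraries left 338 genes higher and 273 lower by at least a doubling, with fewer genes tested (14386). DESeq2 called 2611 higher and 2910 lower, and limma-voom 3732 and 3889. Leaving out each library gave 2890 to 3731 higher and 2993 to 3827 lower genes, and 450 to 561 higher and 409 to 469 lower by at least a doubling. MYC mRNA ranged over -0.80 to 0.024 (log2) when each library was left out, and passed the threshold each time except without control replicate 2, at -0.62 without labelled knockdown replicate 1 and -0.29 without replicate 2; after subtraction of other-strand reads it was -0.044. PHF10 ranged over -0.053 to 0.0065 and CASC11 over -2.39 to 0.14 in the same fits, in which a lone library is assumed to vary like the other group. The replicate number only names the libraries (correlation of same-numbered deviations -0.03); with it as a replicate block, 3739 genes were higher and 3834 lower, and MYC was at -0.40. Of the named genes past the threshold, 156 of 157 were still called without control replicate 1 (HAS2 was not), 155 without control replicate 2 (HAS2 and MITF were not), and all 157 under every other alternative that used experiment 2 alone. Markers at 0 to 2 reads could not be tested at this depth.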
